A study of Rattus norvegicus with 12 samples.

Results

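The response to rapamycin was compared between a pair of rat liver epithelial cell lines, WB-F344 and WB311, by taking for each probe set its log2 change in WB311 minus its log2 change in WB-F344. WB-F344 is a diploid line that came from the liver of an adult Fischer rat, forms no tumors, is labelled sensitive to rapamycin and doubles in 42 hr. WB311 arose from WB-F344 without a transforming treatment, is tumorigenic, is labelled resistant and doubles in 15.5 hr. The 4 groups were WB-F344 with DMSO vehicle, WB-F344 with 50 nM rapamycin, WB311 with DMSO vehicle and WB311 with 50 nM rapamycin, all for 24 hr in medium with serum, with 3 plates and 3 arrays in each group. Only 1 line stands for each response, so a difference in response cannot be told apart from any other difference between these cultures. The labels number the plates without saying whether they were separate cultures, and the p-values measure the spread between plates, which may be technical. Leaving out array controls, 12182 of 31042 probe sets had a mean intensity of at least 100 in at least 1 treatment group of each line and could be measured in both. These stand for 7723 genes with a single symbol, and each gene is given by its probe set of highest mean log2 intensity. Probe sets whose weaker line reached 100 to 110 numbered 463, with a median size of the difference of 0.18. The 612 probe sets just outside, at 90 to 100, had a median size of 0.175.

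Rapamycin binds the immunophilin FKBP12, and the complex inhibits the protein kinase mTOR in mTOR complex 1. This complex promotes protein synthesis, ribosome production, glycolysis, sterol synthesis and the passage from G1 into DNA replication. The comparison asks which transcripts respond differently in a sensitive line and in a resistant line derived from it. In the text, "higher" means that the log2 change with rapamycin was more positive in WB311 than in WB-F344, and "lower" the opposite. A transcript can therefore be higher because it fell only in WB-F344, because it rose only in WB311, or both. RNA was taken from whole plates, so fewer cells that express a gene and less RNA per cell cannot be told apart.

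WB-F344 plate 2 differed from the remaining plates under either treatment: log2 signal of the Gapdh control at its 3′ end exceeded that at its 5′ end by 0.34 (vehicle) and 0.17 (rapamycin). On the other arrays this value lay between -0.12 and -0.042. The part of these plates in the results was not tested beyond leaving them out. Plates of one WB-F344 group varied more than those of WB311, with a median log2 SD of 0.146 (vehicle) and 0.123 (rapamycin) against 0.0721 and 0.0598. Of 17 hepatocyte markers on the array, 1 or 2 reached an intensity of 100 in each group, and albumin was at 31.9 to 33.5. Most of these markers were thus under 100 in both lines. Of 10 mesenchymal markers, 5 reached 100 in WB-F344 and 4 in WB311. Of 7 biliary and progenitor markers, 3 did in WB-F344 (Krt7, Spp1 and Cd24) and 2 in each WB311 group. Of 7 endothelial markers only Tek did, in WB311 alone (995 with vehicle and 1129 with rapamycin). For counts of probe sets, a call needed a Benjamini-Hochberg adjusted p under 0.05 and a fold of at least 1.2.

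The change with rapamycin differed between the lines for 1321 of the 12182 probe sets. It was higher in WB311 for 948 and lower for 373, so that 71.8% of the calls were higher. Over all 14214 probe sets tested, 10.7% were called, 7.34% higher and 3.33% lower. The called probe sets stand for 1054 genes, and 162 of them had no single gene symbol. Differences over 2-fold were called for 97 probe sets, 67 higher and 30 lower, and over 4-fold for 8. The median size of a called difference was 0.56 on the log2 scale and the smallest was 0.26.

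The fitted change was larger in WB-F344 for 1144 of the 1321 probe sets (86.6%). The same share was not counted over all members, and plates varied more in WB-F344. In the same fit, 22.6% of the probe sets tested in WB-F344 were called (7.56% rose and 15% fell), against 3.52% in WB311 (1.79% rose and 1.74% fell). This gap depended on the shared estimate of spread: over the members, 2674 probe sets were called in WB-F344 and 425 in WB311, but 1405 and 1122 with each line fitted on its own arrays and 1800 and 1088 with line weights. Without the WB-F344 plates numbered 2 the counts were 3571 and 1141. The difference and the changes within lines share arrays, so their overlap is a description only. Of the 948 higher probe sets, 748 fell in WB-F344 without a call in WB311, 54 rose in WB311 only, 40 fell in WB-F344 and rose in WB311, 8 fell in both, 1 rose in both and 97 had no call in either line. Of the 373 lower ones, 274 rose in WB-F344 only, 19 fell in WB311 only, 12 rose in WB-F344 and fell in WB311, 9 rose in both, 2 fell in both and 57 had no call in either line. These patterns come from the shared fit, in which fewer probe sets were called in WB311 than on its own arrays, so the absence of a call in WB311 does not show the absence of a change. In that fit 188 probe sets had the same call in both lines, of which 20 also differed in size.

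The direction of the calls depended on how the arrays were scaled. With cyclic loess, 782 were higher and 611 lower (56.1% higher), and with each array centred on its expressed probe sets, an alternative added after the data were seen, 785 and 647 (54.8% higher). Centring each array on the median of all probe sets gave 978 and 279 (77.8% higher). The median difference over the members was 0.059 as deposited, -0.007 with cyclic loess, -0.018 with centring on expressed probe sets and 0.09 with median centring. No called probe set was called in the opposite direction under any of these. Without the WB-F344 plates numbered 2 the count was 2573, of which 1300 were shared with the 1321, and with the replicate number as a block within each line it was 2742, of which 1320 were shared. Leaving out WB311 vehicle plate 2, WB311 rapamycin plate 2 or WB311 rapamycin plate 3 lowered the count to 875, 870 or 856.

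**Figure D1:**
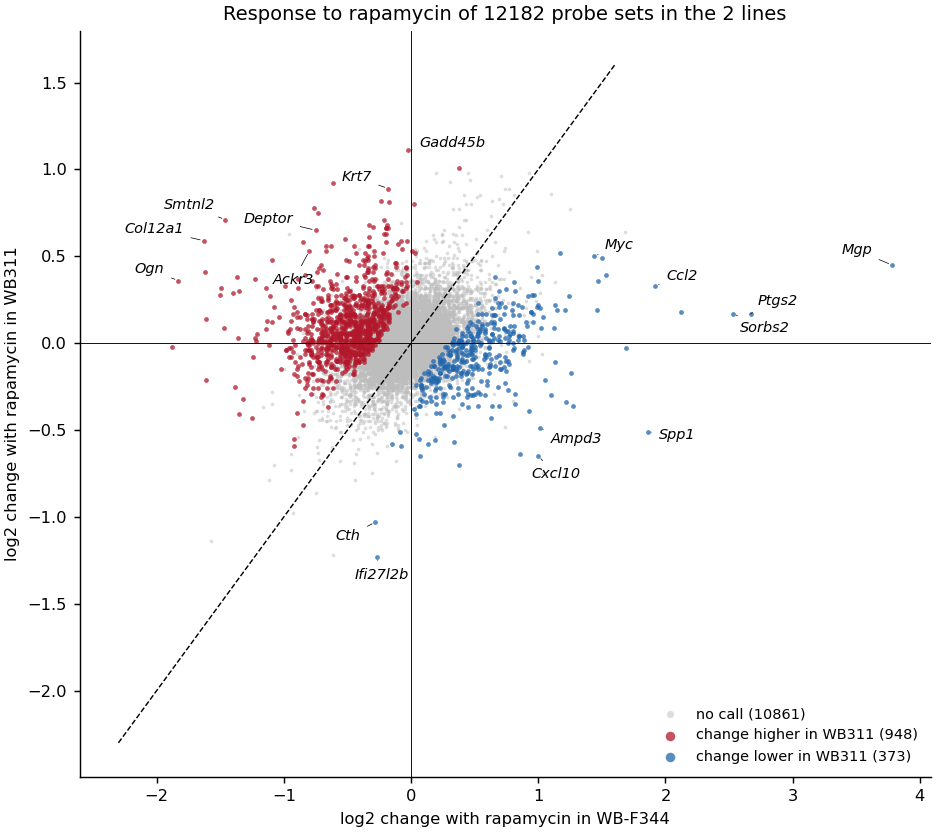
Log2 change with rapamycin of each of the 12182 probe sets in WB-F344 (horizontal axis) and WB311 (vertical axis), each the difference of 3 rapamycin and 3 vehicle arrays. Red points are the 948 called higher in WB311, blue points the 373 called lower and grey points those with no call, and the dashed line marks equal change. The called points spread mainly along the horizontal axis, with Mgp farthest to the right.

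Transcripts of DNA replication fell in WB-F344 and had no call in WB311. Of 39 genes of this list measured in both lines, which covers licensing factors, helicase and polymerase subunits and enzymes of nucleotide supply, 33 were higher and 0 lower (84.6% called, against 12.7% of all 7723 genes). The median change was -0.50 in WB-F344 and 0.01 in WB311, and the median difference was 0.56, against 0.06 over all genes. In WB-F344, 38 of the 39 fell. Of all 7723 genes, 1342 fell and 536 rose in WB-F344, and 171 fell and 141 rose in WB311. In WB311 none of the 39 was called, also when the WB311 arrays were tested on their own. When single arrays were left out, 25 to 33 genes were higher, and without the WB-F344 plates numbered 2 the count was 36.

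Cdt1, which loads the replicative helicase onto origins, had intensities of 784, 809 and 792 on the WB-F344 vehicle plates, 444, 457 and 466 with rapamycin, 965, 1033 and 1015 on the WB311 vehicle plates and 995, 962 and 976 with rapamycin. The groups were fully apart in WB-F344 and overlapped in WB311. The difference was 0.77 (SE 0.073, adjusted p = 0.000213 from limma). Rfc3, a subunit of the clamp loader, read 585, 555 and 567 on the WB-F344 vehicle plates, 363, 395 and 330 with rapamycin, 628, 649 and 698 on the WB311 vehicle plates and 736, 755 and 745 with rapamycin, with a difference of 0.83 (SE 0.1, adjusted p = 0.00063 from limma). Here the WB311 rapamycin plates were all slightly above the vehicle plates. Prim1, the catalytic primase subunit that starts new strands, and Mcm3, a helicase subunit, differed by 0.71 and 0.62. The 6 genes without a call included Tyms, the thymidylate synthase, at -0.14, and Tk1, thymidine kinase, at 0.65 (adjusted p = 0.085).

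Mitotic transcripts followed the same pattern, with 28 of 34 genes higher and 0 lower (82.4% called, against 12.7% of all genes). Their median change was -0.58 in WB-F344, where 31 fell, and 0.09 in WB311, where 2 rose. With each line tested on its own arrays, 22 fell in WB-F344 and 6 rose in WB311. All 34 differences were above 0, from 0.28 to 0.96. With single arrays left out, 24 to 31 were called. Bub1b, a spindle checkpoint kinase, had intensities of 792, 818 and 839 on the WB-F344 vehicle plates, 480, 502 and 508 with rapamycin, 1066, 1011 and 1073 on the WB311 vehicle plates and 1073, 1061 and 1077 with rapamycin. Its WB-F344 groups were apart by a wide margin, and its WB311 groups overlapped. The difference was 0.74 (SE 0.074, adjusted p = 0.000266 from limma). Aurka, the centrosomal kinase, differed by 0.95, Prc1, which bundles microtubules at cytokinesis, by 0.71, and Cdca8, a subunit of the chromosomal passenger complex, by 0.78.

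Foxm1, the transcription factor that drives many mitotic genes, moved in opposite directions in the lines. Its intensities were 298, 343 and 302 on the WB-F344 vehicle plates, 212, 216 and 200 with rapamycin, 370, 371 and 408 on the WB311 vehicle plates and 479, 503 and 445 with rapamycin. No rapamycin array overlapped a vehicle array of its line, with rapamycin below in WB-F344 and above in WB311. The log2 change was -0.58 in WB-F344 and 0.31 in WB311, a difference of 0.90 (SE 0.11, adjusted p = 0.00063 from limma). The rise in WB311 was close to the threshold (adjusted p = 0.049 from limma). Nusap1, a spindle microtubule protein, and Psrc1, also a microtubule binder, had opposite calls as well, with differences of 0.61 and 0.83.

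The promoters of these genes are shown because the replication and mitosis groups had different short sequences near the start of transcription. RefSeq promoters (assembly GRCr8, 250 bases before to 50 after the first listed start of each gene) were matched by gene identifier for 6572 of the 7723 genes, among them 594 of the 697 called higher and 233 of the 280 called lower. The letters TTTCGCGC or TTTGGCGC, which resemble sites of E2F factors, were searched on both strands, as were CCAAT, the NF-Y box, and TTTGAA, a form of the cell cycle homology region. TTTCGCGC or TTTGGCGC occurred in 34.4% of 32 promoters of replication genes called higher, in 4.35% of 23 of mitosis genes called higher, in 5.39% of all called higher, in 0 of the 233 called lower, in 1.81% of the 6572 and in 0.841% of all 27457 promoters. TTTGAA occurred in 9.38% and 69.6% of the replication and mitosis promoters, in 11.2% of the 6572 and in 18.1% of all. CCAAT occurred in 59.4%, 82.6%, 38.8% and 37.7%. Over all measured genes of the lists, called or not, TTTCGCGC or TTTGGCGC occurred in 37.1% of 35 replication promoters and TTTGAA in 72.4% of 29 mitosis promoters, so the called genes did not hold these letters more often than their lists. These are descriptions of letters in this window, and no binding was measured. For each group the 250 bases before the start are printed 5′ to 3′ for the genes of smallest p whose stretch held the group's letters, a choice made after their values were seen. Capitals mark TTTCGCGC or TTTGGCGC in Gins1 (chr3:160184670-160184919, plus strand) and Mcm2 (chr4:122918095-122918344, minus strand), and CCAAT and TTTGAA in Prc1 (chr1:143659231-143659480, plus strand) and Cdca8 (chr5:142483200-142483449, minus strand), each on either strand.
Gins1: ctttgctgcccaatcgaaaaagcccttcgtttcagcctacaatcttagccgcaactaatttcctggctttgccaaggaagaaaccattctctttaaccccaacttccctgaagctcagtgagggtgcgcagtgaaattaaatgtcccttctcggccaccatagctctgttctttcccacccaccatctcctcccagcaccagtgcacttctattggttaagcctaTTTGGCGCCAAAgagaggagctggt
Mcm2: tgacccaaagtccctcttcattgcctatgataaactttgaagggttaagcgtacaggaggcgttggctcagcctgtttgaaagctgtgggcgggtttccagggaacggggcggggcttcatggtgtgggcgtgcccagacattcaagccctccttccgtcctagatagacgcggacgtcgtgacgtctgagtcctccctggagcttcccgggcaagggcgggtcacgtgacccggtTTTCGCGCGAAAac
Prc1: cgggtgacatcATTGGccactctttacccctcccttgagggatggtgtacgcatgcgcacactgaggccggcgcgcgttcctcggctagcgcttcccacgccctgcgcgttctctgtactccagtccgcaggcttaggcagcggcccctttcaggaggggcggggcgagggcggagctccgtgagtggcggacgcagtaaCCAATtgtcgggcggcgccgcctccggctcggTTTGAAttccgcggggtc
Cdca8: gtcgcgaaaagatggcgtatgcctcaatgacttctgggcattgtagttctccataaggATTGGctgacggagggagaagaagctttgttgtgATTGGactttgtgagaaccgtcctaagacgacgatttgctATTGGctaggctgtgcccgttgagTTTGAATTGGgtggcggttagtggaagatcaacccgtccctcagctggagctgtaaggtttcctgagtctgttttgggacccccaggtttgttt
In Gins1 and Mcm2 the matches on both strands overlap and end 14 and 3 bases before the start. Gins1, a subunit of the GINS helicase complex, had intensities of 418, 394 and 412 on the WB-F344 vehicle plates, 258, 273 and 236 with rapamycin, 549, 538 and 536 on the WB311 vehicle plates and 520, 499 and 476 with rapamycin, and Mcm2, a helicase subunit, 1327, 1372 and 1310 on the WB-F344 vehicle plates, 947, 1028 and 973 with rapamycin, 1570, 1540 and 1621 on the WB311 vehicle plates and 1560, 1618 and 1570 with rapamycin. In both genes all WB-F344 rapamycin plates were below all vehicle plates, and in WB311 the Gins1 arrays were also apart by a small step and the Mcm2 arrays overlapped. Their differences were 0.56 (SE 0.092, adjusted p = 0.00355 from limma) and 0.45 (SE 0.076, adjusted p = 0.00395 from limma).

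Regulators of G1 were mixed. Of 21 genes of this list, 7 were higher and 3 lower (47.6% called, against 12.7% of all genes), and the median difference was 0.26. The 7 fell to 3 or 4 without WB-F344 rapamycin plate 1 or 3, WB311 vehicle plate 1 or 2, or any WB311 rapamycin plate. Myc, a transcription factor that promotes growth, had intensities of 306, 333 and 296 on the WB-F344 vehicle plates, 861, 858 and 824 with rapamycin, 1098, 1104 and 1219 on the WB311 vehicle plates and 1585, 1587 and 1671 with rapamycin. It rose in both lines, and more in WB-F344. The changes of 1.44 and 0.50 differed by -0.94 (SE 0.092, adjusted p = 0.000252 from limma). Cdk2, the kinase partner of cyclins E and A, fell in WB-F344 (-0.63) and had a change of -0.01 in WB311, a difference of 0.62. Cdkn2c, an inhibitor of CDK4 and CDK6, differed by 0.67 and Cdkn2d, a related inhibitor, by 0.52. Ccnd1, cyclin D1, rose in both lines by 0.74 and 0.55, and its difference of -0.18 was not called (95% interval -0.52 to 0.15). Mxd3, a partner of MAX that opposes Myc, had opposite calls and a difference of 1.16 (SE 0.13, adjusted p = 0.000459 from limma), with the WB-F344 rapamycin group under 100, so that its size is rough.

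**Figure D2:**
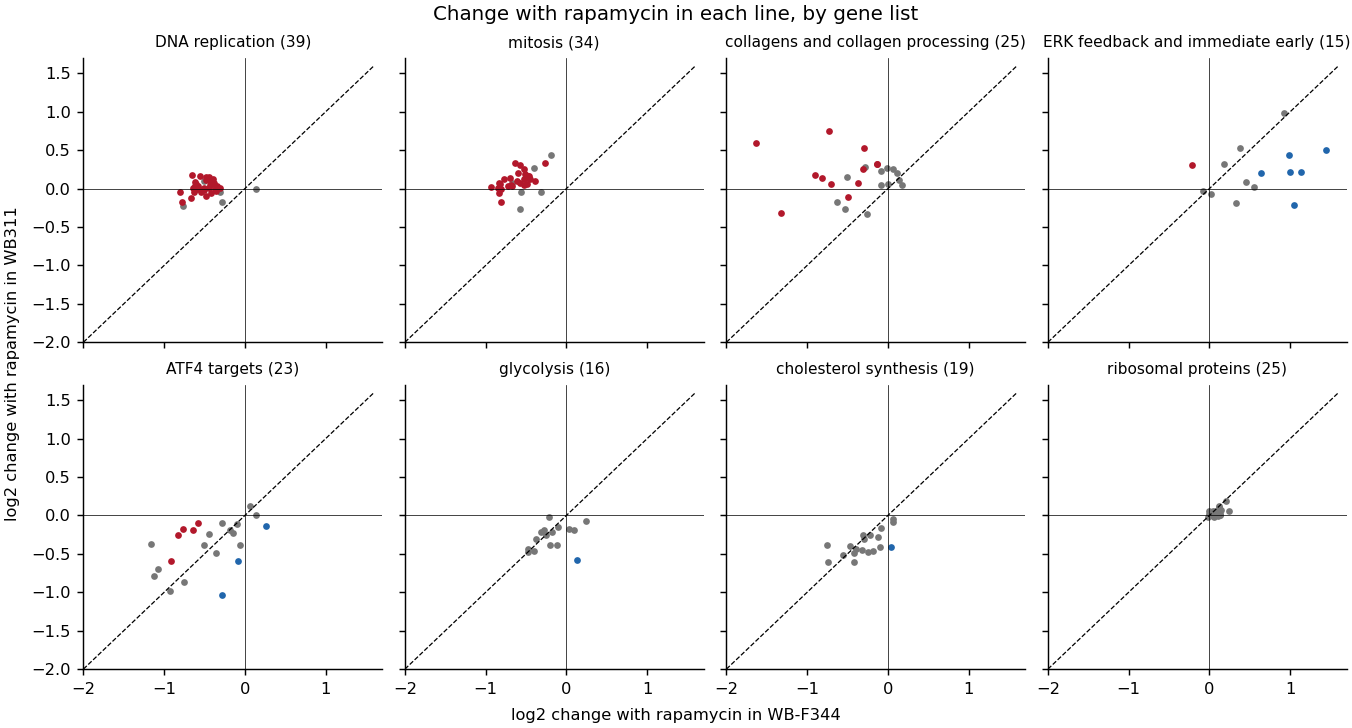
Log2 change with rapamycin in WB-F344 (horizontal axis) and WB311 (vertical axis) for each gene of 8 lists, with the number of genes in brackets. Red points are called higher in WB311, blue points lower and grey points not called, and the dashed line marks equal change. Replication genes other than Tyms, and all mitosis genes, lie left of the dashed line, most of them near a WB311 change of 0, while glycolysis and cholesterol synthesis genes lie along it.

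Genes of collagen and collagen processing were higher in WB311 for 12 of 25 and lower for 0 (48% called, against 12.7% of all genes). Their median change was -0.29 in WB-F344 and 0.15 in WB311. In WB-F344, 13 fell and 0 rose, and in WB311, 3 rose and 0 fell. On the arrays of each line alone, 8 fell in WB-F344, and 7 rose and 2 fell in WB311. With single arrays left out, 8 to 14 were higher. Levels of this group differed strongly between the lines before treatment: the summed intensity of 10 mesenchymal markers was 42318 to 51335 on the WB-F344 vehicle arrays and 1910 to 2007 on the WB311 vehicle arrays, and 34952 to 40948 and 2107 to 2294 with rapamycin. The part of that difference in the response was not tested. Col14a1, a fibril-associated collagen, had intensities of 259, 234 and 258 on the WB-F344 vehicle plates, 155, 150 and 146 with rapamycin, 211, 214 and 226 on the WB311 vehicle plates and 370, 376 and 349 with rapamycin. All rapamycin plates were below all vehicle plates in WB-F344 and above them in WB311. Its changes of -0.73 and 0.75 differed by 1.49 (SE 0.088, adjusted p = 2.09e-05 from limma). P4ha3, a prolyl hydroxylase that modifies collagen, also had opposite calls and differed by 0.82. Col3a1, a fibrillar collagen with levels of 12128, 14210 and 12337 on the WB-F344 vehicle plates, 6506, 7770 and 6495 with rapamycin, 460, 429 and 550 on the WB311 vehicle plates and 595, 527 and 506 with rapamycin, fell in WB-F344 and overlapped in WB311, with a difference of 1.08 (SE 0.16, adjusted p = 0.00196 from limma). Col1a1 had 2 probe sets that disagreed in call, at 0.65 (adjusted p = 0.106) for the brighter and 1.04 (adjusted p = 0.007) for the other.

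Of 24 matrix glycoproteins and proteoglycans, 8 were higher and 2 lower (41.7% called, against 12.7% of all genes). Ogn, osteoglycin, fell in WB-F344 only (-1.83), and its difference of 2.20 was a 4.58-fold one. Mgp, matrix Gla protein, which inhibits calcification, had the largest difference among the called genes, at -3.32 (SE 0.12, adjusted p = 3.92e-07 from limma). Its change was 3.78 in WB-F344 and 0.45 in WB311, both called as rises. Spp1, osteopontin, had opposite calls, at 1.86 and -0.51. Ccn2, a matricellular growth factor also known as CTGF, showed the reverse arrangement of most genes. Its intensities were 12090, 13969 and 12528 on the WB-F344 vehicle plates, 12626, 14094 and 12443 with rapamycin, 1608, 1755 and 1726 on the WB311 vehicle plates and 2808, 2982 and 3094 with rapamycin. The WB-F344 arrays overlapped, and every WB311 rapamycin plate was above every WB311 vehicle plate. The change was 0.02 in WB-F344 and 0.80 in WB311, a difference of 0.78 (SE 0.11, adjusted p = 0.00141 from limma).

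Other genes with a call in WB311 only included Gadd45b, Krt7, Id1 and Cdkn2d among those that rose, and Ddit4, Pfkp and Msmo1 among those that fell. Gadd45b, a stress-induced signaling protein, had intensities of 2201, 2019 and 2217 on the WB-F344 vehicle plates, 2120, 2163 and 2066 with rapamycin, 275, 289 and 292 on the WB311 vehicle plates and 586, 653 and 607 with rapamycin. All WB311 rapamycin plates were far above their vehicle plates, and the WB-F344 groups overlapped. The difference was 1.13 (SE 0.088, adjusted p = 6.52e-05 from limma), the change in WB311 being 1.11. Krt7, a keratin of bile duct cells, rose from 76.5 ± 13.4 to 141 ± 16.9 (SD, n = 3 plates) in WB311, and stood at 5533 ± 642 and 4853 ± 313 in WB-F344 without a call, with a difference of 1.07 that is rough since the WB311 vehicle group was under 100. Krt14, a basal keratin, fell in WB-F344 only, with a difference of 2.03.

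Signaling ligands and receptors included several genes that fell in WB-F344 and had small or opposite changes in WB311. Of 12 growth factors and receptors, 5 were higher and 1 lower (0 lower without WB311 rapamycin plate 1 or 3), with a median difference of 0.48. The share called was 50%, against 12.7% of all genes. Fgfr3, an FGF receptor tyrosine kinase, had intensities of 371, 425 and 431 on the WB-F344 vehicle plates, 151, 193 and 140 with rapamycin, 621, 584 and 687 on the WB311 vehicle plates and 771, 795 and 764 with rapamycin. Every WB-F344 rapamycin plate was below the vehicle plates, and the WB311 rapamycin plates were all above theirs. The difference was 1.66 (SE 0.16, adjusted p = 0.000252 from limma), while the WB311 change of 0.30 had no call. A second, weaker probe set of Fgfr3 had opposite calls, with a WB311 change of 0.41 (adjusted p = 0.0326 from limma). Its difference was 1.15, with the WB-F344 rapamycin group under 100. Egfr, the EGF receptor, differed by 0.64. Igf2r, which clears IGF2 and sorts lysosomal enzymes, and Igfbp6, an IGF-binding protein, had opposite calls with differences of 0.71 and 0.65. Pgf, the placental growth factor, differed by 1.74, with the WB-F344 rapamycin group under 100.

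In TGF-beta and BMP signaling, 4 of 22 genes were higher and 2 lower, and the median difference was 0.05 (-0.01 with cyclic loess). The share called was 27.3%, against 12.7% of all genes. The 2 lower became 1 without WB-F344 rapamycin plate 1, WB311 vehicle plate 1 or 3, or WB311 rapamycin plate 2 or 3. Bmp6, a BMP ligand, had intensities of 569, 704 and 611 on the WB-F344 vehicle plates, 361, 495 and 371 with rapamycin, 218, 193 and 221 on the WB311 vehicle plates and 325, 299 and 308 with rapamycin. Every rapamycin plate was below every vehicle plate in WB-F344 and above every vehicle plate in WB311. The difference was 1.19 (SE 0.17, adjusted p = 0.00179 from limma), and other probe sets of the gene gave 0.98 (adjusted p = 0.000476) and 0.19 (adjusted p = 0.745). Tgfb3, a TGF-beta ligand, fell in WB-F344 (-0.93) and differed by 1.1. Of the inhibitors of differentiation that BMPs induce, Id2 fell in WB-F344 and differed by 1.11, and Id1 rose in WB311 and differed by 0.59.

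Of 15 feedback inhibitors of ERK and immediate early genes, 6 were lower and 1 higher (46.7% called, against 12.7% of all genes), and the median change was 0.55 in WB-F344 and 0.22 in WB311. In WB-F344, 10 rose, and in WB311, 4 rose, with 7 and 6 on the arrays of each line alone. Of all 7723 genes, 536 and 141 rose. The 6 lower genes numbered 6 to 8 when single arrays were left out, and the 1 higher gene numbered 0 to 2. Spry2, a Sprouty inhibitor of receptor tyrosine kinase signaling, had intensities of 741, 718 and 689 on the WB-F344 vehicle plates, 1615, 1418 and 1691 with rapamycin, 1086, 1089 and 1063 on the WB311 vehicle plates and 1257, 1176 and 1340 with rapamycin. In both lines all rapamycin plates were above all vehicle plates, by far more in WB-F344. The change of 1.13 in WB-F344 and of 0.22 in WB311, the latter without a call, differed by -0.92 (SE 0.11, adjusted p = 0.00052 from limma). Dusp6 and Dusp5, phosphatases that inactivate ERK, differed by -0.78 and -1.26.

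Of 7 chemokine and inflammatory genes, 4 were lower and 2 higher (85.7% called, against 12.7% of all genes). Every one of these 6 calls was kept when single arrays were left out. Ccl2, a monocyte chemokine, had intensities of 834, 707 and 759 on the WB-F344 vehicle plates, 3195, 2606 and 2932 with rapamycin, 199, 218 and 259 on the WB311 vehicle plates and 257, 284 and 309 with rapamycin. Every WB-F344 rapamycin plate was above every WB-F344 vehicle plate, and the WB311 groups overlapped. The difference was -1.59 (SE 0.16, adjusted p = 0.000295 from limma). Cxcl16, a transmembrane chemokine, differed by -0.89 (SE 0.071, adjusted p = 7.99e-05 from limma). Ptgs2, the inducible prostaglandin synthase, differed by -2.51, with the WB-F344 vehicle group under 100. Cxcl10, an interferon-induced chemokine, had opposite calls, rising in WB-F344 and falling in WB311, with a difference of -1.64 that is rough for the same reason.

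The higher members of the inflammatory list were Cxcl1, a neutrophil chemokine, at 1.2 (SE 0.13, adjusted p = 0.000377 from limma), and Nfkbia. Nfkbia, the inhibitor of NF-kappaB, had intensities of 374, 379 and 376 on the WB-F344 vehicle plates, 297, 322 and 262 with rapamycin, 864, 839 and 884 on the WB311 vehicle plates and 1142, 1284 and 1157 with rapamycin. All rapamycin plates were below all vehicle plates in WB-F344 and above them in WB311, with a difference of 0.83 (SE 0.11, adjusted p = 0.00107 from limma). Among 9 leukocyte markers on the array only Cd14, the lipopolysaccharide co-receptor, was over 100, and it rose in WB-F344 with a difference of -0.77. Summed over these markers, intensity was 732 to 868 (vehicle) and 1237 to 1509 (rapamycin) in WB-F344, and 734 to 851 (vehicle) and 842 to 875 (rapamycin) in WB311. Their part in the chemokine differences was not tested. Ptprc, the defining leukocyte antigen, was at 21.6 to 22.9 in all groups, near the bottom of the array's range.

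Opposite calls in the lines, with the difference called too, were made for 52 probe sets, of which 40 rose in WB311 and fell in WB-F344 and 12 the reverse. In 51 of the 52, vehicle and rapamycin arrays did not overlap in either line. The calls came from the same arrays, and such separation was common. Of all 12182 members, 4151 had arrays apart in WB-F344 and 4778 in WB311. The number was 59 with cyclic loess, of which 37 were shared, 43 with median centring (41 shared) and 143 without the WB-F344 plates numbered 2 (50 shared). The adjusted p of the WB311 change in the 52 ran from 0.000505 (Col14a1) to 0.0494 (Plpp1) from limma. With 1 WB311 array left out, only 35.1% to 46.1% of all calls in WB311 were kept. The 52 stand for 45 genes, and for 38 of them the brightest probe set carried the opposite calls.

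**Figure D3:**
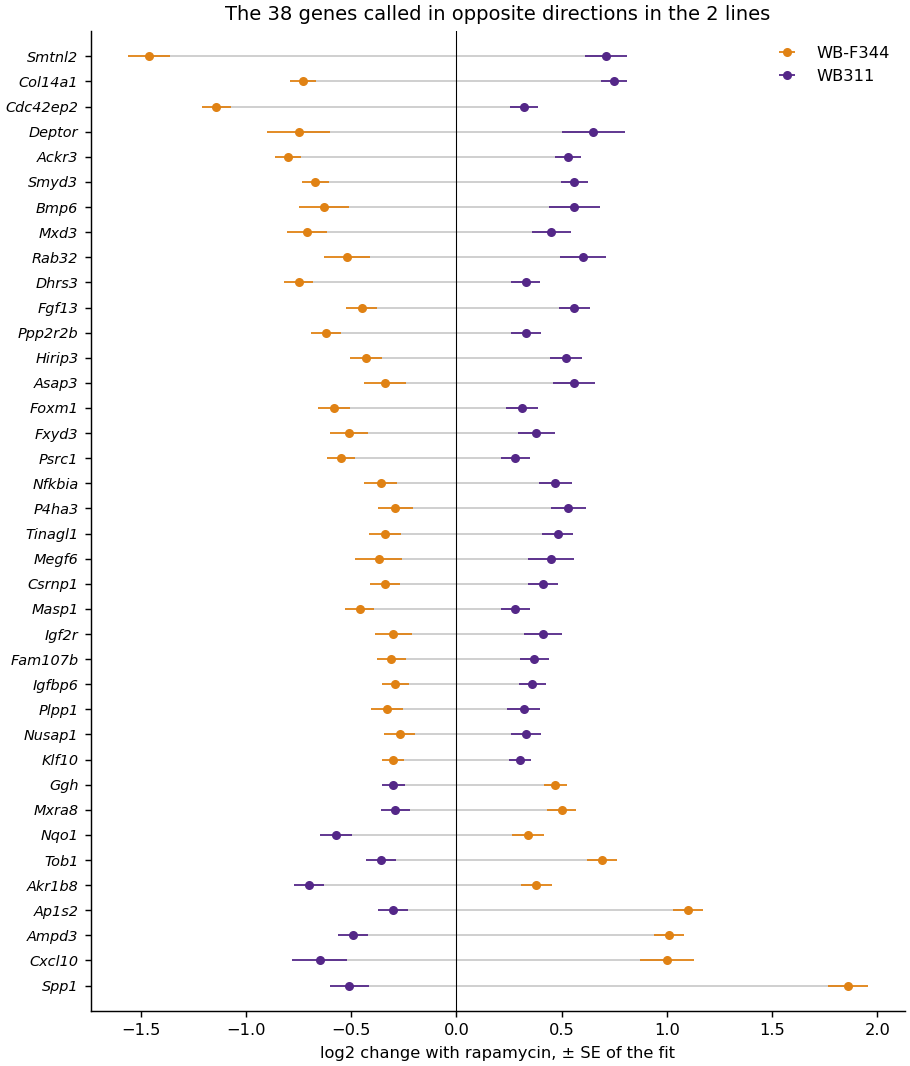
Log2 change with rapamycin in WB-F344 (orange) and WB311 (purple) for the 38 genes called in opposite directions, each with its SE from the fit over 12 arrays, ordered by the difference between the lines. The 29 genes at the top fell in WB-F344 and rose in WB311, and the 9 at the bottom did the reverse.

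Smtnl2, a smoothelin-like protein, had the largest of the differences among genes with opposite calls that rose in WB311. Its intensities were 236, 331 and 287 on the WB-F344 vehicle plates, 98.9, 107 and 102 with rapamycin, 887, 890 and 915 on the WB311 vehicle plates and 1442, 1414 and 1540 with rapamycin. Rapamycin plates were well below vehicle in WB-F344 and well above it in WB311, with a difference of 2.17 (SE 0.14, adjusted p = 2.13e-05 from limma). Cdc42ep2, an effector of the small GTPase Cdc42, differed by 1.46. Ackr3, an atypical receptor that scavenges the chemokine CXCL12, had intensities of 2813, 2966 and 2877 on the WB-F344 vehicle plates, 1597, 1756 and 1631 with rapamycin, 1733, 1788 and 1820 on the WB311 vehicle plates and 2504, 2489 and 2750 with rapamycin. The vehicle level was higher in WB-F344 and the rapamycin level higher in WB311, so the order of the lines turned over with treatment. Its difference was 1.33 (SE 0.087, adjusted p = 2.13e-05 from limma).

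Among the genes that rose in WB-F344 and fell in WB311, Ampd3, an AMP deaminase of purine metabolism, had intensities of 253, 265 and 261 on the WB-F344 vehicle plates, 565, 485 and 528 with rapamycin, 1020, 983 and 1101 on the WB311 vehicle plates and 774, 719 and 721 with rapamycin. No arrays of either line overlapped. The difference was -1.5 (SE 0.1, adjusted p = 2.13e-05 from limma). Nqo1, a quinone reductase of the NRF2 response, had intensities of 1195, 1065 and 1027 on the WB-F344 vehicle plates, 1491, 1263 and 1401 with rapamycin, 2758, 2903 and 2765 on the WB311 vehicle plates and 1875, 1936 and 1876 with rapamycin, and a difference of -0.90 (SE 0.11, adjusted p = 0.000573 from limma). Akr1b8, an aldo-keto reductase, moved the same way with -1.08. Tob1, which restrains proliferation, differed by -1.05 (SE 0.1, adjusted p = 0.000239 from limma), Ggh, a folate polyglutamate hydrolase, by -0.77, and Ap1s2, a clathrin adaptor subunit, by -1.41.

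**Figure D4:**
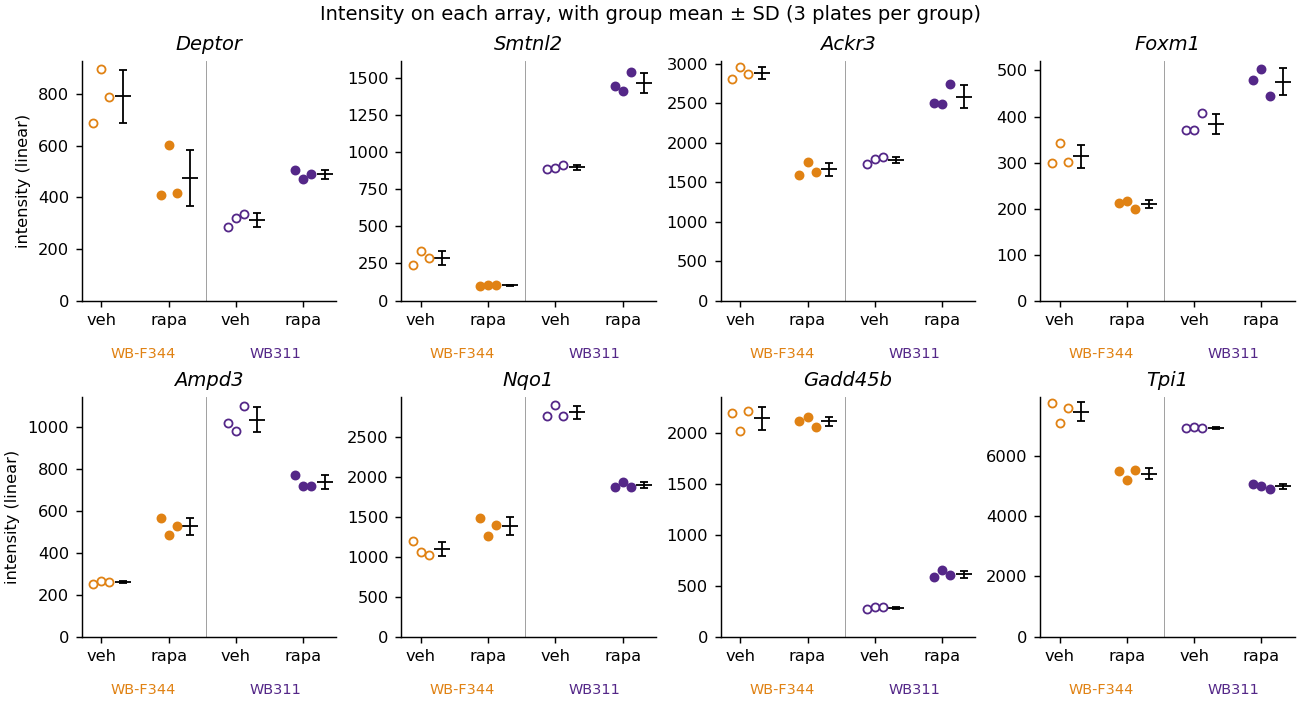
Linear intensity on each of the 12 arrays for 8 genes, with open points for vehicle, filled points for rapamycin, orange for WB-F344 and purple for WB311, and black marks for the mean and SD of 3 plates. Deptor, Smtnl2, Ackr3 and Foxm1 fell in WB-F344 and rose in WB311, Ampd3 and Nqo1 did the reverse, Gadd45b rose in WB311 only and Tpi1 fell in both lines.

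Of 26 genes of the mTOR pathway itself, 1 was higher and 3 lower (15.4% called, near the 12.7% of all genes), and the median difference was 0.04 (-0.02 with cyclic loess). Without WB-F344 rapamycin plate 2, 3 were higher. Deptor, a protein that binds and inhibits mTOR, had intensities of 689, 897 and 787 on the WB-F344 vehicle plates, 409, 602 and 416 with rapamycin, 283, 320 and 334 on the WB311 vehicle plates and 506, 470 and 491 with rapamycin. All rapamycin plates were below all vehicle plates in WB-F344 and above them in WB311, and the WB-F344 plates numbered 2 were the highest of their groups. Its changes of -0.75 and 0.65 differed by 1.40 (SE 0.21, adjusted p = 0.00189 from limma), and a second probe set gave 1.6 (adjusted p = 0.162). On that second probe set the WB-F344 plates numbered 2 were the lowest of their groups, at 97.5 (vehicle) and 63.5 (rapamycin). Without these plates the difference on the first probe set was 1.49 (adjusted p = 4.43e-05 from limma).

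The lower members were Sgk1, a kinase activated by mTOR complex 2, at -0.97 (SE 0.14, adjusted p = 0.00151 from limma), Ddit4, an inhibitor of mTOR complex 1 also called REDD1, and Pdcd4, a translation inhibitor that S6 kinase marks for degradation. Ddit4 had intensities of 220, 251 and 250 on the WB-F344 vehicle plates, 225, 228 and 226 with rapamycin, 1431, 1346 and 1403 on the WB311 vehicle plates and 1001, 841 and 941 with rapamycin. Every WB311 rapamycin plate was below every WB311 vehicle plate, and the WB-F344 groups overlapped. The difference was -0.51 (SE 0.11, adjusted p = 0.0129 from limma). Pdcd4 differed by -0.63 (adjusted p = 0.0275 from limma), and its call was lost without WB-F344 vehicle plate 1, WB-F344 rapamycin plate 3 or WB311 vehicle plate 1 or 3 (adjusted p up to 0.0733). Mtor, Rptor and Rictor, the kinase and the defining subunits of its complexes, had differences of -0.02, -0.03 and -0.05, none called.

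Of 23 amino acid response genes, the targets of ATF4, 14 fell in WB-F344 and 10 in WB311, and none rose in either. Of all 7723 genes, 1342 and 171 fell. The difference was higher for 5 and lower for 3 (34.8% called, against 12.7% of all genes). The 5 fell to 3 without WB-F344 vehicle plate 3, WB-F344 rapamycin plate 3, any WB311 vehicle plate or WB311 rapamycin plate 2 or 3. Psat1, an enzyme of serine synthesis, had intensities of 2965, 2973 and 2954 on the WB-F344 vehicle plates, 1666, 1678 and 1651 with rapamycin, 8888, 9005 and 9162 on the WB311 vehicle plates and 7648, 7468 and 7509 with rapamycin. In both lines every rapamycin plate was below every vehicle plate, by a larger proportion in WB-F344. The changes of -0.83 and -0.26 differed by 0.57 (SE 0.065, adjusted p = 0.000472 from limma), while on the linear scale the difference of the changes was -177 intensity units. The WB311 change (adjusted p = 0.0129 from limma) had no call only because its fold was just under 1.2. Phgdh, the first enzyme of that pathway, differed by 0.46, and Mthfd2, of mitochondrial folate metabolism, by 0.59. Cth, which makes cysteine from cystathionine, went the other way, falling by 1.03 on the log2 scale in WB311 and by 0.28 in WB-F344, a difference of -0.75 (SE 0.13, adjusted p = 0.00412 from limma). Atf4 itself had a difference of -0.01 and Ddit3, the stress factor CHOP, fell in both lines, with a difference of 0.38 that was not called (95% interval 0.09 to 0.68).

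In glycolysis and sterol synthesis every call within a line was a fall, and few genes differed between the lines. Of 16 glycolysis genes, 5 fell in WB-F344 and 6 in WB311, and none rose, where 1342 and 171 of all 7723 genes fell. In the difference 1 was lower and 0 higher (6.25% called, against 12.7% of all genes). The 1 lower became 3 with cyclic loess, with centring on expressed probe sets and with the replicate block within lines. It was also 3 without the WB-F344 plates numbered 2. The median change was -0.21 for WB-F344 and -0.24 for WB311. Tpi1, triose phosphate isomerase, had intensities of 7745, 7107 and 7577 on the WB-F344 vehicle plates, 5496, 5216 and 5525 with rapamycin, 6914, 6956 and 6916 on the WB311 vehicle plates and 5069, 5017 and 4906 with rapamycin. In both lines every rapamycin plate was below every vehicle plate, by about the same proportion. The difference was -0.01 (SE 0.076, adjusted p = 0.974 from limma), with a 95% interval of -0.17 to 0.16. Ldha, lactate dehydrogenase A, had a difference of -0.06 (95% interval -0.24 to 0.11), Pfkl, the liver phosphofructokinase, 0.04 (-0.18 to 0.26) and Pgk1, phosphoglycerate kinase, 0.10 (-0.07 to 0.26), none called. Pfkp, the platelet phosphofructokinase, was the exception at -0.71 (SE 0.12, adjusted p = 0.00368 from limma), with a fall in WB311 only. Of 19 genes of cholesterol synthesis, 10 fell in WB-F344 and 9 in WB311 (5 and 13 on the arrays of each line alone, 10 and 14 without the WB-F344 plates numbered 2). In the difference 1 was lower (2 with cyclic loess or centring on expressed probe sets) and 0 higher (5.26% called). The gene called without these changes was Msmo1, a sterol oxidase, at -0.46 (SE 0.076, adjusted p = 0.00375 from limma). 

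The translation machinery and oxidative phosphorylation showed almost no called difference. Of 25 ribosomal protein genes, 0 were called, and the differences lay between -0.18 and 0.06. Of 22 aminoacyl-tRNA synthetase genes and 42 genes of oxidative phosphorylation, 0 were called as well, with ranges of -0.17 to 0.50 and -0.23 to 0.22. Of 42 genes of ribosome biogenesis, 2 were higher and 0 lower (4.76% called, against 12.7% of all genes), with a median difference of 0.11. In WB-F344 13 fell (5 on its own arrays), where 1342 of all 7723 genes fell. One of the 2 was Polr1c, a subunit of RNA polymerases I and III, at 0.53 (SE 0.083, adjusted p = 0.00275 from limma). The 2 became 5 without WB-F344 rapamycin plate 2, and 1 without WB-F344 vehicle plate 1 or 3, WB-F344 rapamycin plate 3, WB311 vehicle plate 1 or 2, or WB311 rapamycin plate 1 or 2. Without the WB-F344 plates numbered 2, 6 genes of ribosome biogenesis and 2 synthetases were higher. The median standard error of a difference over all members was 0.135, and a p that misses the threshold does not show that the lines responded alike.

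**Figure D5:**
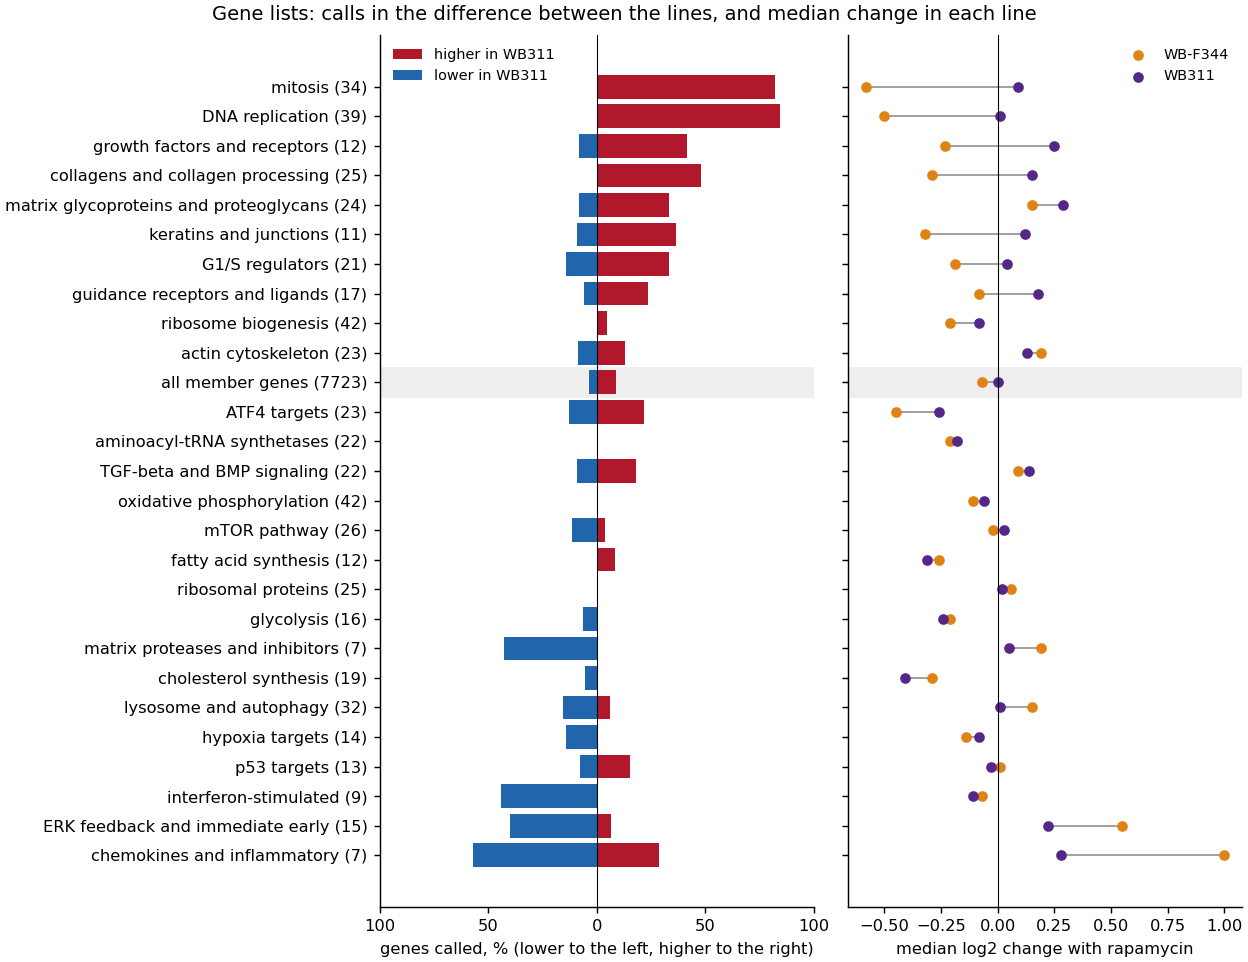
Left, percentage of the genes of each list called higher (red, to the right) or lower (blue, to the left) in WB311, with the number of genes in brackets and all 7723 genes shaded. Right, median log2 change with rapamycin of each list in WB-F344 (orange) and WB311 (purple). Mitosis and DNA replication stand at the top with 82.4% and 84.6% of their genes called higher, and lists are ordered by the median difference, with chemokine and ERK feedback genes at the bottom.

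Of 23 genes of the actin cytoskeleton, 3 were higher and 2 lower (21.7% called, against 12.7% of all genes). The median difference was 0.09 (0 with cyclic loess). The 2 lower became 1 without WB-F344 rapamycin plate 1, WB311 vehicle plate 1 or 2, or WB311 rapamycin plate 3. Sorbs2, an adaptor of stress fibers and focal adhesions, had intensities of 191, 272 and 191 on the WB-F344 vehicle plates, 1133, 1425 and 1187 with rapamycin, 161, 147 and 185 on the WB311 vehicle plates and 183, 190 and 179 with rapamycin. Every WB-F344 rapamycin plate was above every WB-F344 vehicle plate, and the groups overlapped in WB311. Its difference was -2.36 (SE 0.2, adjusted p = 0.000118 from limma).

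A difference of log2 changes and a difference of intensity changes can have opposite signs where the levels differ. This held for 8 of the 1321 called probe sets (0.606%). A group mean under 100, which makes a difference only a rough size, was present for 92 (6.96%). Of 45 other probe sets for 35 of the genes selected for description, 43 had a difference of the same sign. Of the 33 that belonged to called genes, 0 had the opposite sign and 19 were called as well.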

How the data were processed

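RNA of 12 plates, 3 for each of 4 groups, was hybridised to 12 Affymetrix Rat Genome 230 2.0 arrays, and groups were taken from the labels. The authors deposited linear intensities made by RMA (no version is given in the sources used here), between 7.78 and 20499, with array medians of 59.5 to 62.9. RMA values carry no count, and the number of arrays limits the precision. Values were taken to log2 and fitted over all 12 arrays with limma 3.58.1 in R 4.3.3, with the variance prior from the 14214 probe sets with a mean of at least 100 in at least 1 group. Each test was adjusted by Benjamini-Hochberg over the probe sets measurable in its samples (14214 for the difference, 13261 for WB-F344 and 13135 for WB311), and a call also needed a fold of 1.2. The fit was tried on simulated data with equal spread in all groups and independent plates. That trial did not cover the greater spread of WB-F344 or the deviations that its plates share across treatments.

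Of the probe sets other than controls, 20826 had 1 gene symbol in the platform annotation, 436 several and 9780 none, and of 20832 single identifiers 20764 were found in RefSeq. The members and gene lists were chosen with earlier results of these data known. Genes named were the 15 with the largest called difference in each direction, those with opposite calls in the lines, up to 4 of smallest p in each list and genes the study names for its arrays, not all of which are described. Gins1, Mcm2, Tk1, Tyms, Atf4, Mtor, Rptor and Rictor were named after their values were seen. In WB-F344, plates of the same number deviated together from their group means (correlations of 0.676, 0.871 and 0.561). Plates 1 and 3 did so across numbers as well (0.605 and 0.581), while plates numbered 2 deviated against both (-0.799 to -0.672). The deviations thus set the plates numbered 2 apart more than they paired plates by number. In WB311, plates of the same number did not deviate together (-0.0569, -0.000258 and -0.139). The labels give no reason for this, and a block for the replicate number within each line was fitted as an alternative. Other alternatives changed the filter, scaling, variance estimate and arrays. A result is not reported here.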

Additional observations from a re-analysis of the deposited data

Results flagged for a closer look

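The change with rapamycin differed between the lines for 1321 probe sets by the test of the difference itself, which is the comparison reported above. Among genes that moved in opposite directions in the lines, the largest differences of the log2 changes were those of Spp1 (-2.37), Smtnl2 (2.17), Cxcl10 (-1.64), Ampd3 (-1.5), Col14a1 (1.49), Cdc42ep2 (1.46), Ap1s2 (-1.41), Deptor (1.40), Ackr3 (1.33), Smyd3 (1.23), Bmp6 (1.19) and Mxd3 (1.16). The differences of these 12 genes were tested by limma, and every one was called. Smyd3 encodes a lysine methyltransferase. In each of them the vehicle and rapamycin arrays were apart in both lines, on the same arrays that gave the calls.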

How the results depend on the processing

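Over 30 settings no called gene that was selected for description reversed, and 106 of 119 kept the call when any 1 array was left out. The count of 1321 differences became 2173 with the fold filter applied before the correction, 3137 with array weights (whose estimate stopped before convergence) and 2573 without the WB-F344 plates numbered 2. Leaving out 1 array gave 856 to 1622. In WB-F344 the count over the same probe sets was 2674, and it became 1312 with the methods' t-test with unequal variances, 1405 when fitted on its own arrays alone, and 2153 to 3222 with 1 array left out. In WB311 it was 425, and it became 231 with no filter on intensity, 939 with the fold filter before the correction, 1202 with array weights, 1088 with line weights, 1141 without the WB-F344 plates numbered 2, 1122 when fitted on its own arrays alone, 1107 and 934 with the methods' t-test with equal and unequal variances, and 149 to 692 with 1 array left out. The lowest WB311 counts came without an array of WB311, and 692 without WB-F344 vehicle plate 2. The cause was not tested.

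With the replicate block within lines, the counts were 2742 for the difference and 1043 for WB311. Without the WB-F344 plates numbered 2 they were 2573 and 1141. With the replicate block over both lines they were 1192 and 368. Cyclic loess and the centrings moved none of the 3 total counts by over 1.5 times, but the lower differences went from 373 to 611 with cyclic loess and to 647 with centring on expressed probe sets. The variance prior from all probe sets and centring on expressed probe sets were chosen after seeing the data. With 3 arrays a group, differences near the median standard error of 0.135 are not resolved.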

Other observations

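Several lysosomal genes were lower in WB311 than in WB-F344 in their change. Of 32 genes of the lysosome and autophagy, 5 were lower and 2 higher (21.9% called, against 12.7% of all genes), with a median difference of -0.15. In WB-F344 9 rose and in WB311 2 rose, against 536 and 141 of all 7723 genes. Ctsd and Ctsl, lysosomal proteases, had differences of -0.47 and -0.51. A second probe set of Ctsl rose in WB-F344 (0.45) and fell in WB311 (-0.29), with a difference of -0.75. Neu1, a lysosomal sialidase, differed by -0.84, with the WB311 rapamycin group under 100, and Gusb, a glucuronidase, differed by 0.52. The 5 lower genes were 3 without any 1 of 8 arrays, namely WB-F344 vehicle plate 1, WB-F344 rapamycin plates 2 and 3, the WB311 vehicle plates and WB311 rapamycin plates 2 and 3, and 9 with cyclic loess.

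Of 17 guidance receptors and ligands, 4 were higher and 1 lower (29.4% called, against 12.7% of all genes). Plxna2, a semaphorin receptor, rose in WB-F344 only and differed by -0.93, while Sema3f, a secreted semaphorin, rose in WB311 only and differed by 0.44. Of 11 genes of keratins and junctions, 4 were higher and 1 lower (45.5% called). Among them were Dsp, desmoplakin, at 0.68, Pkp2, plakophilin, at 0.72 and Tjp1, a tight junction scaffold, at -0.46. Of 14 hypoxia targets, 2 were lower (14.3% called, near the 12.7% of all genes), with Bnip3l, a mitophagy receptor, at -0.55. The 2 became 1 without WB-F344 vehicle plate 1 or 3, WB-F344 rapamycin plate 1, any WB311 vehicle plate or WB311 rapamycin plate 2 or 3, and 4 without the WB-F344 plates numbered 2.

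Of 9 interferon-stimulated genes, 4 were lower (44.4% called, against 12.7% of all genes). The number was 2 without any single rapamycin plate of WB-F344 or any single plate of WB311. Tap1, an antigen peptide transporter, rose in WB-F344 only and differed by -0.85, with the WB311 rapamycin group under 100. Ifi27l2b fell in both lines, more in WB311, and differed by -0.96. Of 13 p53 targets (23.1% called), 2 were higher and 1 lower, the latter being Fas, a death receptor, at -0.65. The lower count became 0 without WB-F344 vehicle plate 3, WB-F344 rapamycin plate 1, any WB311 vehicle plate or WB311 rapamycin plate 1 or 3, 4 without WB-F344 vehicle plate 2, 2 without WB-F344 rapamycin plate 2 and 6 without both of these. With cyclic loess 1 was higher and 4 lower, and with centring on expressed probe sets 1 and 5. Of 7 matrix proteases and inhibitors (42.9% called), 3 were lower, and 1 without WB311 vehicle plate 1 or WB311 rapamycin plate 1 or 2. Of 12 genes of fatty acid synthesis (8.33% called), 1 was higher, with a median difference of 0.02 that was -0.06 with cyclic loess. The count became 0 with cyclic loess, both centrings and the replicate block, and without any single array other than WB-F344 vehicle plate 1 and WB-F344 rapamycin plate 2.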
